A study of Mus musculus with 10 samples.

Results

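Matrix proteases, their inhibitors and the plasminogen activators were followed through 9 genes in ASZ001 cells, the metalloproteinases Mmp2, Mmp3, Mmp9 and Mmp14, the tissue inhibitors of metalloproteinases Timp1, Timp2 and Timp3, and the urokinase gene Plau with its receptor gene Plaur. The genes were picked by symbol, with earlier results of these data known, and are 9 of the 15997 genes listed in both RNA-seq tables. ASZ001 is a single mouse basal cell carcinoma line, so the libraries describe 1 cell line and no tumor stroma. All cells were kept in low serum with low calcium for 24 h. One experiment compared 3 DMSO libraries with 3 libraries of 10 µM SB431542, an inhibitor of the TGFß receptor kinase ALK5, and the other compared 2 DMSO libraries with 2 of 20 µM T-5224, an inhibitor of AP-1. Each inhibitor was set against the DMSO of its own experiment, and the labels call the libraries biological replicates without naming the cultures, so p-values measure the spread between these libraries.

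Metalloproteinases are made as inactive proenzymes and, once activated, cut collagens, laminins and other matrix proteins. TIMPs bind active metalloproteinases and block them, and Timp2 also takes part at the cell surface in the activation of pro-Mmp2 by Mmp14. Urokinase, held on the cell by its receptor, turns plasminogen into plasmin, a protease that degrades fibrin and activates several pro-MMPs. In skin these genes are known for their part in wound repair and in invasion by carcinoma cells.

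Values are RPKM, reads scaled by transcript length and by the number of mapped reads, which allow levels of different genes to be set side by side. The libraries held 31.9 to 51.4 M reads, as read from the steps between low values of short RNAs. Differences are log2 fold changes on the log2(RPKM + 0.5) scale, which understates the change of low genes, and were tested with limma with Benjamini-Hochberg adjustment over all genes with a mean of at least 1 RPKM. A gene is called down or up with an adjusted p under 0.05 and a change of more than 2-fold, and is given as lower or higher wherever the adjusted p passed, whatever the size of the change. All 9 basal keratinocyte markers were at 1 RPKM or more, with Krt5 at 4889 and 6002 RPKM in the DMSO libraries of the SB431542 and T-5224 experiments. Ptprc, the pan-leukocyte marker, was at most at 0.012 RPKM and the fibroblast collagen gene Col1a1 at most at 0.102 RPKM. Other markers of immune cells, fibroblasts and endothelium were higher in the DMSO of the SB431542 and T-5224 experiments. Mean Cd68 was at 8.43 and 17.6 RPKM, Dcn at 2.13 and 1.89 RPKM and Pecam1 at 5.75 and 11.3 RPKM. One DMSO library of the SB431542 experiment (replicate 1) stood further from its group than the others, and results that change without it are given as such.

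In DMSO, Timp2 and Timp3 were the highest of the 9 genes. In the SB431542 experiment the order was Timp3 at 274 ± 27.6 RPKM (SD, n = 3), Timp2 at 199 ± 6.53, Mmp14 at 46.8 ± 1.53, Plau at 10.9 ± 1.14, Timp1 at 3.18 ± 0.441, Plaur at 2.28 ± 0.220, Mmp2 at 1.44 ± 0.118, Mmp3 at 0.723 ± 0.262 and Mmp9 at 0.0323 ± 0.0274 RPKM. The ranges of neighbouring genes in this order did not overlap. In the T-5224 experiment the order in DMSO was Timp2, Timp3, Mmp14, Plau, Mmp3, Timp1, Mmp2, Plaur and Mmp9, and only the neighbours Timp1 and Mmp2 overlapped, at 1.58 to 1.83 and 1.46 to 1.88 RPKM.

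The DMSO cells of the 2 experiments differed most in Mmp3 and Plaur among these genes. Mmp3 was 12.7-fold higher and Plaur 8.29-fold lower in the DMSO of the T-5224 experiment, Timp3 was 2.19-fold lower and Timp1 1.87-fold lower, and the other 5 genes were 1.16-fold to 1.48-fold higher. The tables were normalized separately and this difference was not tested. Of 10462 genes tested in both, 13.4% differed by more than 2-fold between the 2 sets of DMSO libraries on the log2(RPKM + 0.5) scale. The plot of RPKM by library shows every value.

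**Figure D1:**
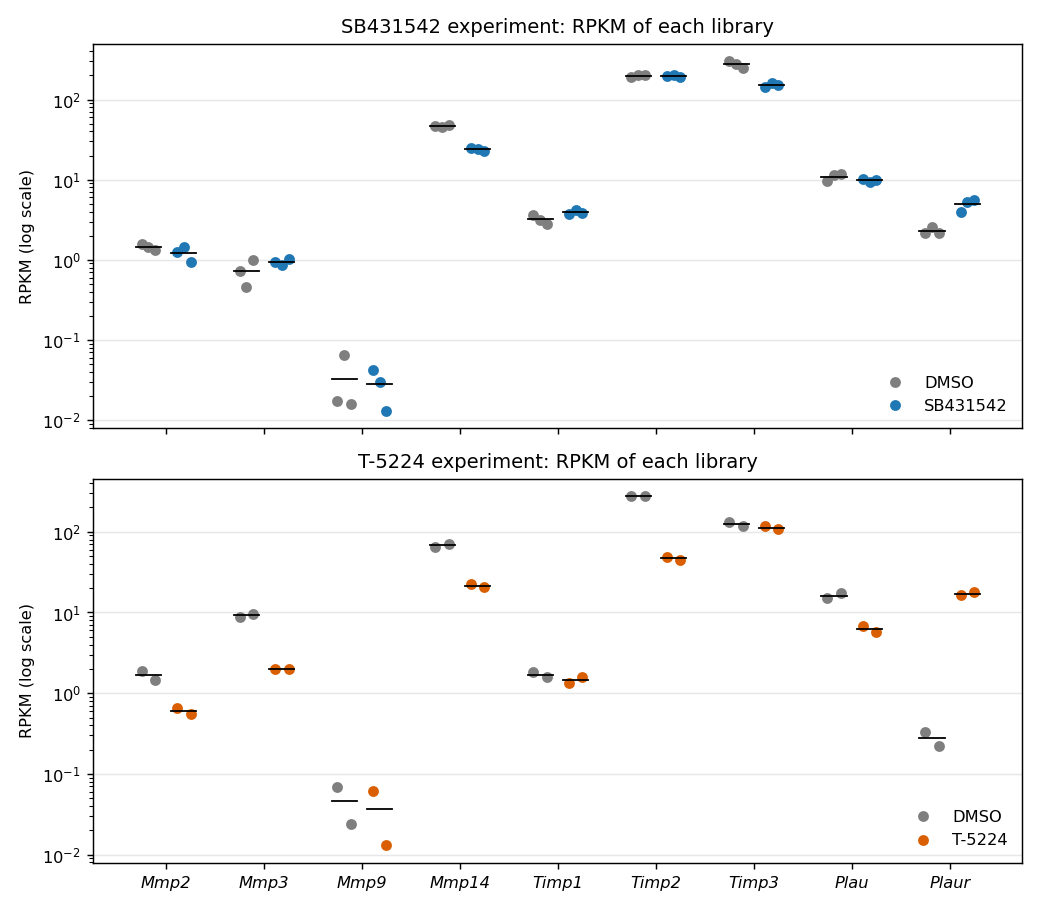
RPKM (log scale) of each gene in every library, with DMSO in gray, the inhibitor in color and a black bar at the group mean; the SB431542 experiment is in the upper panel (3 against 3 libraries) and the T-5224 experiment in the lower (2 against 2). Plaur lies above its DMSO libraries in both panels, and Timp2, Mmp3, Mmp14 and Plau lie below them with T-5224.

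With SB431542, Mmp14 and Timp3 were lower and Plaur was higher, each by close to 2-fold, and Timp2 and Plau did not pass the test. None of the 7 genes tested was down and none was up, where 0.581% of all 10842 genes tested were down and 0.231% were up, 0.812% together (limma). At the adjusted p alone, 2 of the 7 were lower and 1 was higher, where 10.0% of all genes were lower and 10.2% higher, 20.2% together. Without DMSO replicate 1, 3 were lower and 2 higher, the added ones being Plau and Timp1. DMSO and SB431542 libraries did not overlap in 4 of the 7 (Mmp14, Timp3, Plaur and Timp1), where 45.1% of all genes did not overlap. The median log2 fold change was -0.15 over the 7 and 0.01 over all genes.

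With T-5224, Timp2, Mmp3, Mmp14 and Plau were down and Plaur was up, so 4 of the 8 genes tested were down and 1 was up, where 10.6% of all 10809 genes tested were down and 10.4% were up, 21.0% together (limma). Mmp2 and Timp3 were lower without passing 2-fold, which makes 6 lower and 1 higher of 8, where 39.4% of all genes were lower and 40.3% higher, 79.7% together. Without the first DMSO library 4 were lower, since Timp3 then missed the p limit and Mmp2 fell under the filter. DMSO and T-5224 libraries did not overlap in all 8, and 89.7% of all genes did not overlap either. The median log2 fold change was -1.13 over the 8 and 0.003 over all genes. Mmp2, at a mean of 0.605 RPKM with T-5224, passed the filter through its DMSO libraries. Plaur, at a mean of 0.275 RPKM in DMSO, passed it through its T-5224 libraries. These counts and this median are therefore a description. Mmp9 was under the filter in both experiments and Mmp3 in the SB431542 experiment.

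**Figure D2:**
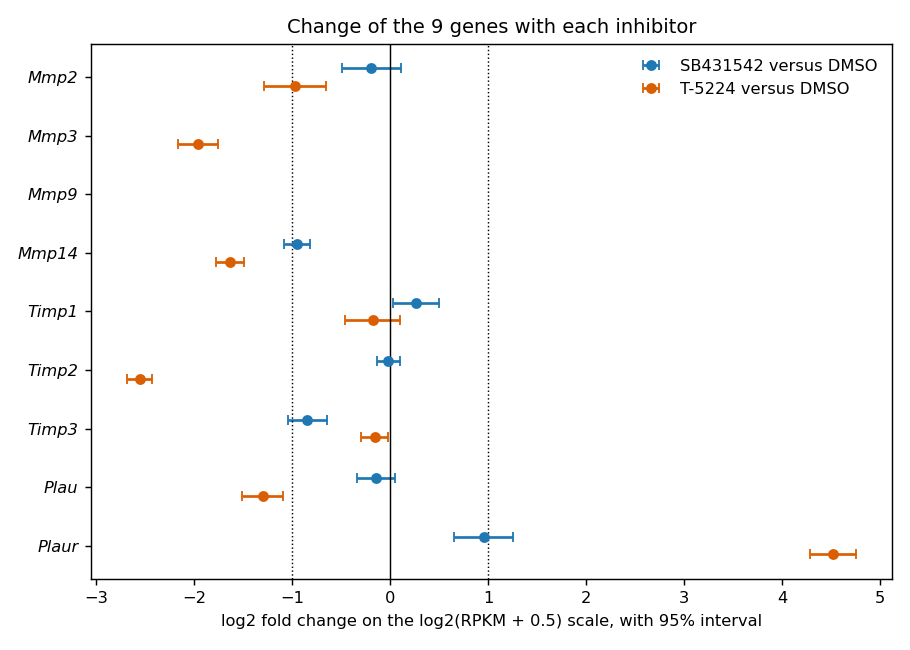
Log2 fold change on the log2(RPKM + 0.5) scale of each gene tested, with its 95% interval from limma; solid line, no change; dotted lines, 2-fold. With SB431542 the points for Mmp14, Timp3 and Plaur lie just inside the dotted lines, and with T-5224 Plaur lies at 4.51 and Timp2 at -2.55.

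Basal keratinocyte markers moved in the same experiments. Their sum was 10229 to 10404 RPKM in DMSO and 7272 to 7736 with SB431542. Mean Krt5 went from 4889 to 3964 RPKM with SB431542, Krt14 from 4076 to 2320 and Col17a1 from 740 to 508. Krt15 rose from 24.5 to 34.85 RPKM and Epcam from 114 to 134. The libraries of the DMSO and SB431542 groups overlapped for Trp63, Itga6, Itgb4 and Cdh1. In the other experiment the sum was 12726 to 13498 RPKM in DMSO and 2012 to 2075 with T-5224. There Krt5 went from 6002 to 589 RPKM, Krt14 from 5708 to 809 and Col17a1 from 723 to 199. Krt15, Trp63, Itga6, Itgb4 and Cdh1 fell as well, and only Epcam rose, from 70.7 to 124.5 RPKM. In the T-5224 experiment 6 of 8 fibroblast markers were listed, with a sum of 2.54 to 2.58 RPKM in DMSO and 2.65 to 2.84 with T-5224. Of 7 immune markers 6 were listed, with a sum of 19.3 to 21.5 and 35.4 to 35.5 RPKM. Most of it was Cd68, and mean Cd14 was at 2.68 RPKM in DMSO and 2.47 with T-5224. In the SB431542 experiment 7 fibroblast and 5 immune markers were listed. The fibroblast sum was 2.45 to 2.64 RPKM in DMSO and 3.70 to 4.14 treated, most of it Dcn, and the immune sum 9.31 to 12.4 and 9.87 to 10.2 RPKM. Of 5 endothelial markers, 3 were listed in the SB431542 and 4 in the T-5224 experiment. Their sum, nearly all of it Pecam1, was 5.32 to 6.76 and 2.757 to 2.999 RPKM with SB431542, and 11.1 to 12.1 and 4.29 to 4.80 RPKM with T-5224. The part of these markers in the changes of the 9 genes was not tested, and in bulk RNA fewer cells of a type and less RNA per cell cannot be told apart.

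Among the 4 metalloproteinases of the 9 genes, Mmp14 (mm9 chromosome 14, 55050441 to 55060095, plus strand), the membrane-anchored collagenase that activates pro-Mmp2, carried most of the RNA. It was at 46.6, 45.3 and 48.4 RPKM in DMSO and at 24.8, 24.4 and 22.8 RPKM with SB431542. The groups lay far apart, and Mmp14 was lower by -0.95 on the log2 scale (SE 0.06, 95% interval -1.08 to -0.82, limma adjusted p = 0.000124). With T-5224 it went from 65.2 and 70.2 to 22.5 and 20.6 RPKM, a 3.14-fold fall (log2 fold change -1.63, SE 0.06, adjusted p = 1.06e-09).

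Mmp3 (chromosome 9, 7445822 to 7455972, plus strand), stromelysin 1, which cuts proteoglycans and laminin and activates other pro-MMPs, was a low gene in 1 experiment and not in the other. It was at 8.76 and 9.59 RPKM in the DMSO of the T-5224 experiment and at 1.99 and 2.00 RPKM with T-5224. The replicates of each group lay close together and 4.61-fold apart (log2 fold change -1.96, SE 0.09, adjusted p = 3.99e-09). In the SB431542 experiment it was between 0.463 and 0.987 RPKM in DMSO and between 0.865 and 1.02 RPKM with SB431542, groups that overlapped, and it was too low for the main test. Without the filter its log2 fold change was 0.26 (SE 0.16, limma adjusted p = 0.386).

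Mmp2 (chromosome 8, 95351227 to 95377316, plus strand), gelatinase A, was at 1.33 to 1.57 RPKM in DMSO and 0.938 to 1.44 RPKM with SB431542, and the groups overlapped (log2 fold change -0.19, 95% interval -0.49 to 0.11, adjusted p = 0.323). With T-5224 it went from 1.88 and 1.46 to 0.659 and 0.551 RPKM. The ratio of the means was 0.362, and on the log2(RPKM + 0.5) scale the change was -0.97 (SE 0.15, adjusted p = 7.51e-05), just short of 2-fold. It passed 2-fold with a pseudocount of 0.1 (-1.32), without the second DMSO library (-1.11) and without the first T-5224 library (-1.04). Mmp9 (chromosome 2, 164766280 to 164781350, plus strand), gelatinase B, was at most at 0.069 RPKM, which is 2 to 10 reads per library, and a change could not be detected at this depth.

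Timp2 (chromosome 11, 118162383 to 118217054, minus strand) passed the test with T-5224 and not with SB431542. It was at 192, 201 and 205 RPKM in DMSO and at 197, 201 and 192 RPKM with SB431542. The groups overlapped, and the 95% interval of the log2 fold change was -0.14 to 0.10 (adjusted p = 0.804). With T-5224 it went from 276 and 277 RPKM to 48.9 and 44.6 RPKM, a 5.91-fold fall (log2 fold change -2.55, SE 0.06, adjusted p = 1.21e-11). The difference between the inhibitors was not tested, since their doses, DMSO libraries and tables differ.

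Timp3 (chromosome 10, 85763117 to 85812251, plus strand), the TIMP that stays bound to the matrix and also inhibits ADAM proteases, was lower with SB431542 by close to 2-fold and with T-5224 by much less. It was at 299, 280 and 245 RPKM in DMSO and at 143, 162 and 151 RPKM with SB431542, with no overlap (log2 fold change -0.84, SE 0.09, 95% interval -1.04 to -0.65, adjusted p = 0.00116). With T-5224 it went from 132 and 119 to 117 and 108 RPKM, groups that lay only just apart. That change was -0.16 (SE 0.06, adjusted p = 0.0379) and did not pass without the DMSO library at 132 RPKM (-0.09, adjusted p = 0.301) or without the T-5224 library at 108 RPKM (-0.10, adjusted p = 0.243), nor without a filter or a mean-variance trend (adjusted p = 0.121 and 0.111). Syn3 lies on the opposite strand and shares 1733 exonic bases with Timp3, but was at most at 0.164 RPKM.

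Timp1 (chromosome X, 20447292 to 20451861, plus strand), the secreted TIMP that is induced in many inflamed tissues, was at 3.64, 3.15 and 2.76 RPKM in DMSO and at 3.72, 4.17 and 3.81 RPKM with SB431542. All SB431542 libraries were above all DMSO libraries by a narrow margin, and the change did not pass (0.26, 95% interval 0.03 to 0.50, adjusted p = 0.108). It passed without DMSO replicate 1, the library that stood apart (0.35, adjusted p = 0.0129). With T-5224 it went from 1.83 and 1.58 to 1.33 and 1.57 RPKM (-0.18, 95% interval -0.46 to 0.11, adjusted p = 0.223), and quantile normalization gave 0.004.

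With each inhibitor, the summed RPKM of the 3 TIMPs and of the 4 MMPs among the 9 genes was lower than in DMSO. The ratio of these sums, TIMP to MMP, was higher. The sum of the 3 TIMPs was 452 to 495 RPKM in DMSO and 344 to 368 with SB431542, and the sum of the 4 MMPs went from 47.3 to 50.7 RPKM to 24.8 to 27.0 RPKM. The TIMP sum was 8.92 to 10.2 times the MMP sum in DMSO and 12.7 to 14.0 times with SB431542. In the T-5224 experiment the TIMP sum went from 398 to 409 RPKM to 154 to 167 RPKM, the MMP sum from 75.9 to 81.2 to 23.1 to 25.2 RPKM, and the ratio from 4.90 to 5.40 to 6.63 to 6.66. The groups did not overlap in any of these sums and ratios, which are given as a description with no test. They leave out the other metalloproteinases, such as Mmp15, at 16.6 and 33.9 RPKM in the DMSO of the SB431542 and T-5224 experiments. The size of the ratio depends on the genes summed.

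The make-up of the TIMP sum turned in opposite directions. The share of Timp2 was 38.8% to 45.3% in DMSO and 54.7% to 57.3% with SB431542, and the rest was nearly all Timp3. With T-5224 the share of Timp2 went from 67.4% to 69.6% down to 28.9% to 29.2%, and that of Timp3 from 30.0% to 32.2% up to 70.0% to 70.1%. Mmp14 was 85.9% to 95.9% of the MMP sum in all DMSO libraries, 91.3% to 92.1% with SB431542 and 88.9% to 89.3% with T-5224.

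**Figure D3:**
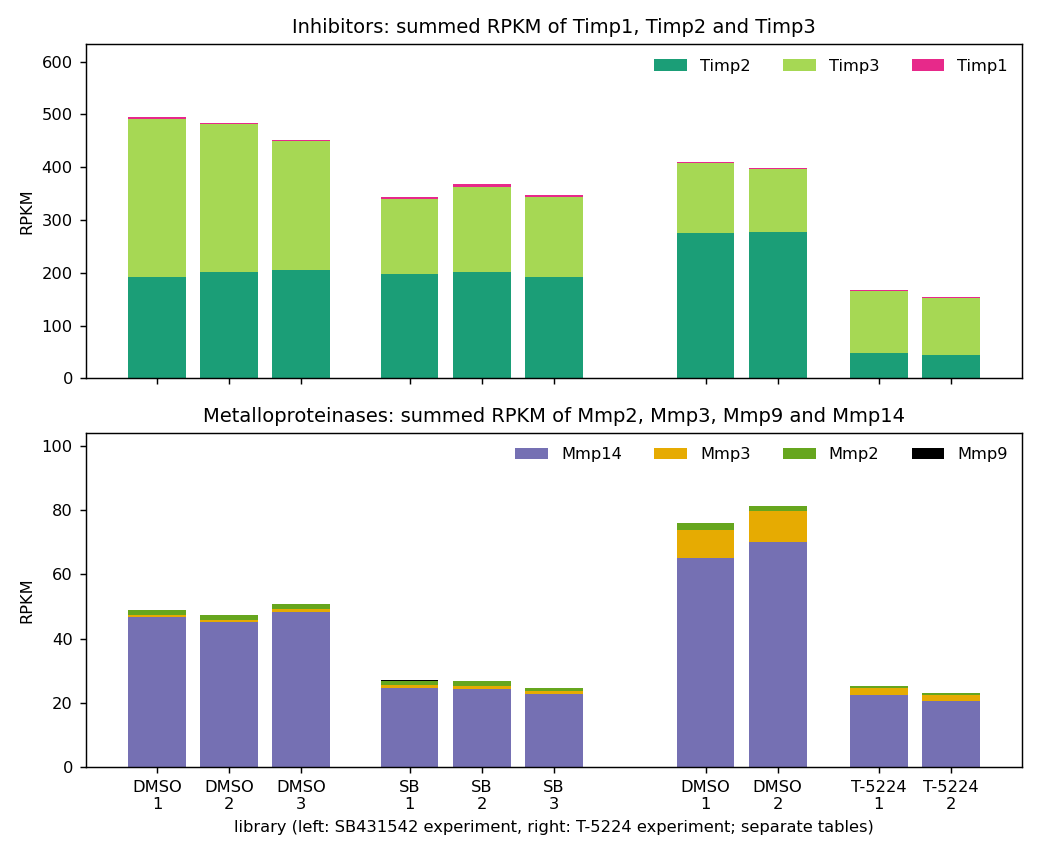
Stacked RPKM of Timp2, Timp3 and Timp1 (top) and of Mmp14, Mmp3, Mmp2 and Mmp9 (bottom) in each of the 10 libraries, 1 bar per library, with both axes from 0; SB stands for SB431542, and the left and right blocks come from tables normalized separately. The Timp3 block is smaller with SB431542 and the Timp2 block with T-5224, where the TIMP sum is 154 to 167 RPKM.

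Plaur (chromosome 7, 25247519 to 25260892, plus strand), the urokinase receptor, was the one gene of the 9 that passed the test as higher with both inhibitors. It was at 2.13, 2.53 and 2.17 RPKM in DMSO and at 3.94, 5.22 and 5.62 RPKM with SB431542. All SB431542 libraries lay above all DMSO libraries, by 2.16-fold on the means, and on the log2(RPKM + 0.5) scale by 0.95 (SE 0.13, 95% interval 0.65 to 1.26, adjusted p = 0.00364). It counted as up with a pseudocount of 0.1, under quantile normalization, without DMSO replicate 2 and without SB431542 replicate 1.

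With T-5224, Plaur went from 0.331 and 0.219 RPKM, about 15 and 12 reads, to 16.6 and 17.7 RPKM, about 1193 and 1220 reads. The ratio of the means was 62.5 and rests on the few reads in DMSO. The log2 fold change was 4.51 (SE 0.11, 95% interval 4.28 to 4.75, adjusted p = 1.83e-11), the 27th largest in size of all genes tested, and was 3.83 to 5.54 with pseudocounts of 1 and 0.1.

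Plau (chromosome 14, 21655884 to 21662610, plus strand), urokinase, went the other way from its receptor with T-5224. It was at 15.1 and 17.2 RPKM in DMSO and at 6.86 and 5.72 RPKM with T-5224, 2.57-fold down (log2 fold change -1.30, SE 0.10, adjusted p = 1.80e-07). With SB431542 it was at 9.61, 11.3 and 11.8 RPKM in DMSO and 10.1, 9.35 and 9.89 RPKM treated, with overlap (-0.15, 95% interval -0.34 to 0.05, adjusted p = 0.249). Without DMSO replicate 1 this passed the p limit (-0.23, adjusted p = 0.0118). The RPKM ratio of Plau to Plaur was 4.46 to 5.43 in DMSO and 1.76 to 2.56 with SB431542, and 45.7 to 78.7 in DMSO and 0.322 to 0.412 with T-5224.

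Over the 10 libraries, each as log2(RPKM + 0.5) minus the mean of its DMSO group, the genes nearest in profile to Mmp14, Timp2, Plau and Plaur were named by Euclidean distance among the 10462 genes tested in both experiments. Mmp3 was not among these and was left out. Nearest to Mmp14 were Slc6a6, the taurine transporter (distance 0.209, log2 fold changes -0.84 with SB431542 and -1.59 with T-5224), and Ctnnd2 (0.254). Nearest to Timp2 were Epha4 (0.188, log2 fold changes -0.04 and -2.61) and Gsn, the actin-severing protein gelsolin (0.209, -0.002 and -2.50). Nearest to Plau were Commd9 (0.203) and Ctnnb1, ß-catenin (0.214). Plaur had no gene as close, and its nearest were Areg, the EGF receptor ligand amphiregulin (0.675, 0.95 and 4.71), and Slc7a5, an amino acid transporter (0.941, 0.72 and 3.98). These are descriptions over libraries that share their DMSO means.

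Other genes of the protease systems were taken from 7 wider lists with 111 genes, of which 97 had values in the SB431542 experiment and 92 in the T-5224 experiment. With SB431542, 45 of these were tested, none was down or up, 9 were lower and 5 higher (limma), where 0.812% of all genes were down or up, 10.0% lower and 10.2% higher, and the median log2 fold change was 0.02. Plat, the tissue plasminogen activator, was higher, from 9.79 ± 0.909 to 15.9 ± 0.215 RPKM (0.67, adjusted p = 0.00158), and so was Serpine2, the protease inhibitor nexin 1, from 10.5 ± 0.466 to 14.1 ± 0.137 RPKM (0.41, adjusted p = 0.00344). Htra1, a secreted serine protease, was lower, from 272 ± 5.38 to 167 ± 2.71 RPKM (-0.70).

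With T-5224, 46 genes of the wider lists were tested, of which 7 were down and 6 up, 26 lower and 13 higher, and the median log2 fold change was -0.26. Of all genes tested 10.6% were down, 10.4% up, 39.4% lower and 40.3% higher, so the share that passed the p limit was near that of all genes. Of the 19 other metalloproteinases, 6 were tested and 6 were called, 5 down and 1 up, and their median log2 fold change was -1.69. The filter admits low genes such as Mmp12 through their DMSO libraries, so this count is a description.

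Mmp11, stromelysin 3, was at 8.68 and 10.03 RPKM in DMSO and 0.998 RPKM in both T-5224 libraries (log2 fold change -2.71, SE 0.10, adjusted p = 7.56e-10), and was lower with SB431542 too, from 6.40 ± 0.787 to 3.80 ± 0.141 RPKM (-0.68, adjusted p = 0.00403). Mmp15, a membrane-anchored metalloproteinase like Mmp14, was at 33.9 ± 2.78 RPKM in DMSO and 8.79 ± 0.765 with T-5224 (-1.89), and at 16.6 ± 0.717 and 15.9 ± 1.08 RPKM in the SB431542 experiment (-0.06, adjusted p = 0.547). Mmp28, epilysin, was the one that was up, from 2.70 ± 0.0537 to 6.91 ± 0.0728 RPKM (1.21, adjusted p = 1.68e-07).

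Mmp10, Mmp12 and Mmp13 lie with Mmp3 in a cluster on chromosome 9 between 7272514 and 7510238, and all of them were down with T-5224. Mmp10, stromelysin 2, went from 5.01 ± 0.623 to 0.957 ± 0.360 RPKM (-1.94), Mmp12, macrophage elastase, from 2.58 ± 0.109 to 0.609 ± 0.204 RPKM (-1.48), and Mmp13, collagenase 3, from 2.51 ± 0.426 to 0.985 ± 0.0877 RPKM (-1.01, adjusted p = 2.60e-05). The call of Mmp13 was lost with a pseudocount of 1 (-0.82), under quantile normalization (-0.85), without the second DMSO library (-0.87) and without the first T-5224 library (-0.95). In the SB431542 experiment these genes were at most at 0.683 RPKM and were not tested. The annotated end of Mmp12 overlaps Mmp1b on the opposite strand, and whether reads were counted by strand is not given in the sources used here.

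In the plasminogen system, 11 of 17 genes were tested with T-5224, of which none was down, 2 were up, 6 were lower and 3 higher, where 21.0% of all genes were down or up and 79.7% lower or higher. The genes that were up were Procr, the receptor of activated protein C, from 0.954 ± 0.230 to 49.1 ± 0.948 RPKM (5.10, SE 0.10, adjusted p = 5.63e-12), and F3, tissue factor, from 1.08 ± 0.177 to 12.0 ± 1.69 RPKM (2.98, SE 0.12). In the SB431542 experiment Procr was at 1.57 ± 0.252 RPKM in DMSO and 1.74 ± 0.164 treated, and F3 at 4.60 ± 0.737 and 5.40 ± 0.530 RPKM. Plat was lower, from 8.13 ± 0.00919 to 3.96 ± 0.194 RPKM (-0.95, adjusted p = 8.25e-07), and passed 2-fold with a pseudocount of 0.1 (-1.02).

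Of all genes tested with T-5224, 21.0% were down or up and 79.7% lower or higher, and the counts of the other lists stand beside these shares. Of these lists, 7 ADAM and ADAMTS genes were tested with T-5224, and 1 was up, Adamts1, which cleaves proteoglycans, from 22.8 ± 0.702 to 94.7 ± 0.130 RPKM (2.03). In the SB431542 experiment Adamts1 was at 150 ± 6.10 RPKM in DMSO and 142 ± 6.14 with SB431542, both above its level with T-5224. Among 10 cathepsins and cystatins, Ctsc, which activates granule proteases, was up from 5.59 ± 0.0509 to 18.4 ± 0.896 RPKM (1.63). Cst3, cystatin C, was down from 1222 ± 57.5 to 488 ± 12.0 RPKM (-1.32), and Ctsa, a lysosomal carboxypeptidase, was down from 102 ± 3.08 to 47.8 ± 2.31 RPKM (-1.09). In the DMSO of the SB431542 experiment Ctsc was at 4.82, Cst3 at 412 and Ctsa at 43.5 RPKM. Lcn2, which binds Mmp9, was listed at 0 in both DMSO libraries and was at 4.36 and 4.51 RPKM with T-5224. Of the membrane serine proteases and their inhibitors, 5 were tested, of which none was down or up, 3 were lower and 2 higher, where 79.7% of all genes were lower or higher. Of the 4 other metalloprotease inhibitors, none was listed in the SB431542 experiment. In the T-5224 experiment 1 was listed, Timp4, which was too low to be tested. Reck had no value in either experiment.

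**Figure D4:**
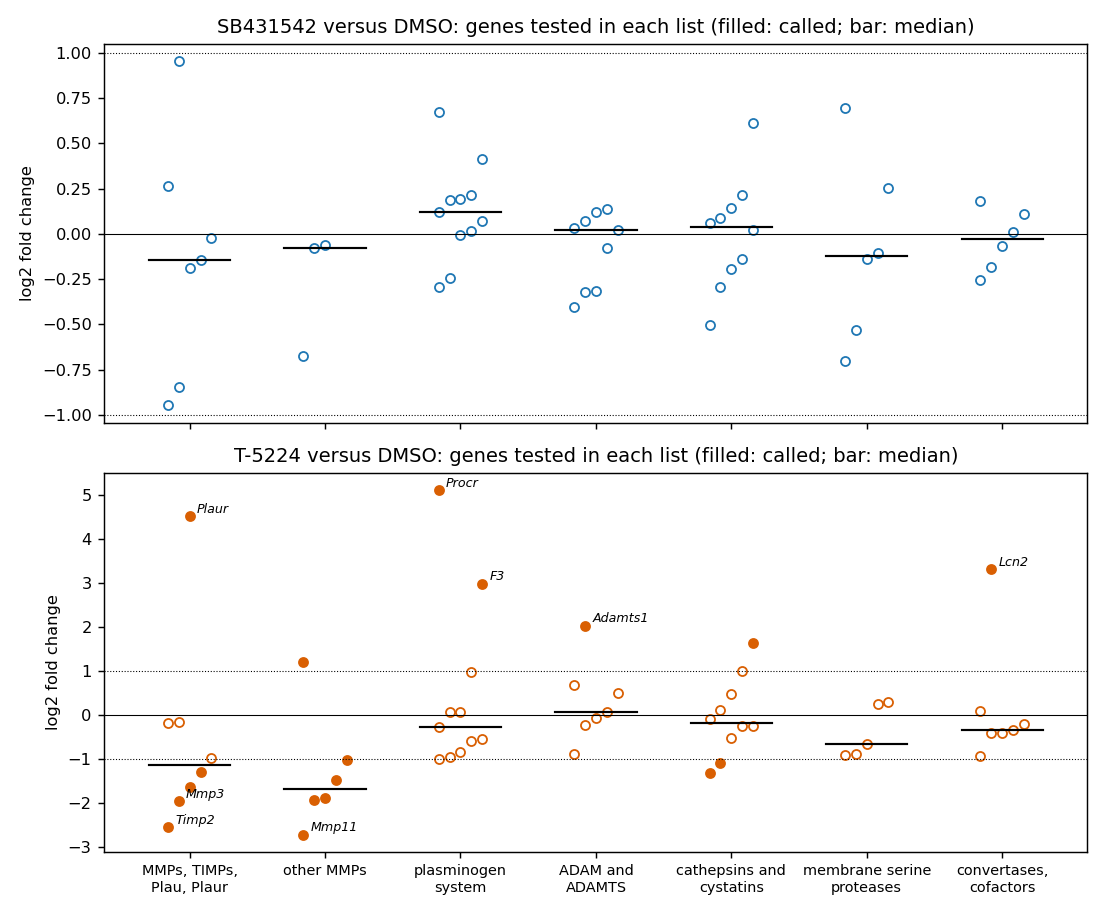
Log2 fold change of the genes reported, grouped by list, with SB431542 (top) and T-5224 (bottom); filled points passed an adjusted p under 0.05 and 2-fold, open points did not, bars are medians and dotted lines mark 2-fold. With SB431542 all points shown are open, and with T-5224 the other MMPs have a median of -1.69 and Procr lies highest at 5.10.

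The letters of the AP-1 element, TGAGTCA or its reverse complement TGACTCA, were looked for on both strands from 250 bases before to 50 after each annotated start, in RefSeq promoters of GRCm38.p6, a build other than the mm9 of the expression files. Promoters were available for 6 of the 9 genes (Mmp3, Mmp14, Timp1, Timp2, Timp3 and Plaur). The element was in 2 of them, Mmp3 and Plaur, and in 5.20% of all 32851 promoters. It was also in 6 of 16 other MMP promoters. The SMAD letters CAGACA or TGTCTG, found in 21.0% of promoters, and GTCTAGAC, found in 0.213%, were in none of the 6. A match is a description of the letters and not a bound site.

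The windows are shown because genes that hold the same 7 letters near the start went in both directions with T-5224. Each is given 5′ to 3′ on the plus strand with the element in capitals and 11 bases on each side.
Mmp3, chr9:7445765-7445793: ggaagcaattaTGAGTCAgttttcgggtg
Mmp10, chr9:7502268-7502296: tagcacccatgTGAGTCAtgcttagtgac
Mmp12, chr9:7347319-7347347: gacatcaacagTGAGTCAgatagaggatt
Mmp13, chr9:7272468-7272496: ccccaaagtggTGACTCAtcactatcatg
Plaur, chr7:24462403-24462431: acccctggagcTGACTCActctttagcaa
Procr, chr2:155751052-155751080: ccccaccccccTGACTCAgcggcgaccta
F3, chr3:121723391-121723419: tgaatcacggtTGAGTCAcccctttcggg
In the metalloproteinase genes the element began 35 to 63 bases before the start, in Plaur 69, in F3 135 and in Procr 154 bases before it. The 4 metalloproteinase genes were down (-1.96 for Mmp3, -1.94 for Mmp10, -1.48 for Mmp12 and -1.01 for Mmp13), and Plaur (4.51), Procr (5.10) and F3 (2.98) were up. Mmp10, Mmp12 and Mmp13, at 0.957, 0.609 and 0.985 RPKM with T-5224, passed the filter through their DMSO libraries. Plaur and Procr, at 0.275 and 0.954 RPKM in DMSO, passed it through their T-5224 libraries. The directions of these genes are therefore a description.

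Serpinb8 (23 bases before the start), Anxa2 (95) and Spint1 (6) also held the element and were lower without passing 2-fold (-0.99, -0.84 and -0.66). Over all genes tested with T-5224 that hold the element in the window, 379 in all, 13.7% were down and 13.2% were up, and of the 8075 without it 9.66% were down and 10.2% were up. With SB431542 the shares were 1.09% down and 0.272% up of 368 genes with it, and 0.457% and 0.185% of 8103 without it. No test was run on these shares.

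**Figure D5:**
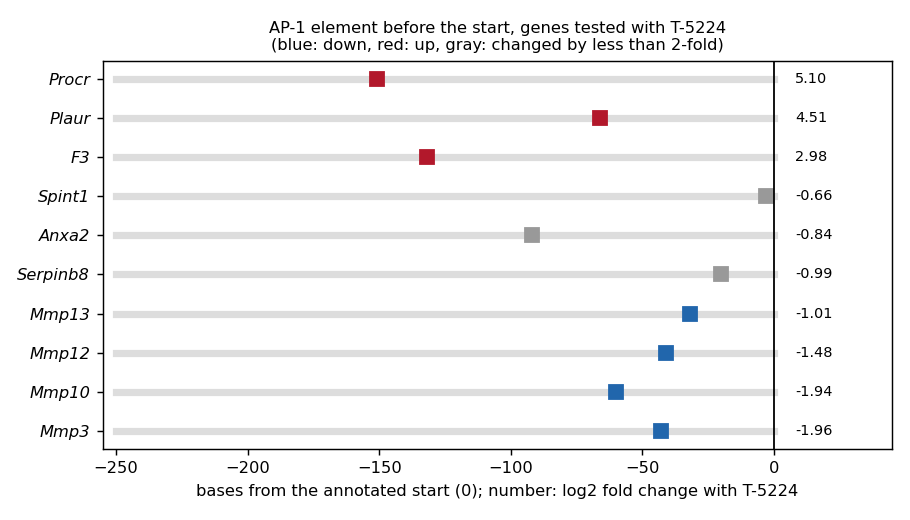
Position of the AP-1 element, in bases from the annotated start, in the promoters of the protease and plasminogen genes tested with T-5224 that hold it; blue squares are genes down, red squares genes up, gray squares genes changed by less than 2-fold, and the number is the log2 fold change with T-5224. The blue genes are the 4 metalloproteinases, with the element within 63 bases of the start.

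The 250 bases before the start of Plaur, which changed most of the 9 genes, and of Timp2, the TIMP that fell most with T-5224, are shown for comparison, 5′ to 3′ on each gene's own strand, with the AP-1 element in capitals where present.
Plaur, chr7:24462233-24462482, plus strand: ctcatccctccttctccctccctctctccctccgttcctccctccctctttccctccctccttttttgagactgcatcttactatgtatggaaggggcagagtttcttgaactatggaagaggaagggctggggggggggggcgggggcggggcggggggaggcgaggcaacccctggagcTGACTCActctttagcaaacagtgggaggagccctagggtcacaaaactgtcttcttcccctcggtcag
Timp2, chr11:118355412-118355661, minus strand: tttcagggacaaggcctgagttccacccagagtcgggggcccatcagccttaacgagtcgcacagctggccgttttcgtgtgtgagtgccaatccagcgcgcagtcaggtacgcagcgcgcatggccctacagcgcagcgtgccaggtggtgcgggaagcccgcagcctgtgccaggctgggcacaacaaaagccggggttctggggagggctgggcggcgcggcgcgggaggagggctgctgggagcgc
The Plaur stretch holds the element once and the Timp2 stretch does not hold it. Of the other promoters available, that of Mmp3 holds it, and Mmp3 was down (-1.96). Those of Mmp14 (-1.63), Timp1 (-0.18) and Timp3 (-0.16) do not hold it. With T-5224, Plaur was at 62.5 times its DMSO level, which rests on about 15 and 12 reads in DMSO. Timp2 was at 16.9% of its DMSO level. The part of the element in these changes was not tested.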

How the data were processed

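RNA was sequenced with a stranded mRNA kit. The authors aligned reads to mm9 with TopHat and made the deposited RPKM values with HOMER, in 1 table per experiment, normalized separately. Counts were not analysed here, so no count test was run. All 10 columns were used. Rows with a date in place of a gene symbol were dropped (22 and 23). Genes with a mean of at least 1 RPKM over a table's libraries were tested, 10842 and 10809, on log2(RPKM + 0.5) with limma 3.58.1 in R 4.3.3 (empirical Bayes with a mean-variance trend, two-sided, Benjamini-Hochberg adjustment over all genes tested). The script was tested on simulated data first.

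The 9 genes, the wider lists and the tests were chosen with earlier results of these data known. Named are the 9 genes, called genes of the wider lists (up to 6 a list), Plat and Reck, the 2 nearest profiles of each called gene tested in both experiments and the highest markers. One gene of the plasminogen list is not reported here, and the list counts leave it out. Uncalled genes named beside these were chosen after their values were seen. Gene positions are from GENCODE for NCBIM37, the assembly of mm9. Promoters are RefSeq's of GRCm38.p6. Alternatives were pseudocounts of 0.1 and 1, other filters, fold limits and normalizations, a fit without the trend, a replicate block, and leaving out each library.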

Additional observations from a re-analysis of the deposited data

Results flagged for a closer look

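Among 49 genes looked at in both experiments, 6 had all libraries of one inhibitor above all of their DMSO libraries and all of the other inhibitor below theirs, and 2 of these, Plat and Serpine2, passed the p limit in both experiments. Libraries lay on opposite sides in this way in 10.5% of all 10462 genes tested in both, and in 12.2% of these 49. Plat was higher with SB431542 (log2 fold change 0.67, limma adjusted p = 0.00158) and lower with T-5224 (-0.95, adjusted p = 8.25e-07). Serpine2 was higher with SB431542 (0.41, adjusted p = 0.00344) and lower with T-5224 (-0.28, adjusted p = 0.00265). Timp1 had values of 0.26 with SB431542 and -0.18 with T-5224, and neither passed (adjusted p = 0.108 and 0.223). The remaining genes, Eno1, St14 and Klk8, passed in the T-5224 experiment alone. The difference between the inhibitors was not tested, since doses and DMSO libraries differ.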

How the results depend on the processing

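With T-5224 the 9 genes gave 4 to 6 down and 1 up under the alternatives run. With SB431542 the count down was 2 and the count up 1 at a fold change of 1.5 and with no limit on the fold change. The count up was also 1 with a pseudocount of 0.1 and under quantile normalization, and 0 to 1 when single libraries were left out. The count higher at the p limit was 0 with a mean RPKM of at least 5, which removes Plaur, 2 with an unadjusted p, and 1 to 2 without single libraries. Of the wider lists, SB431542 gave 2 down and 3 up at a fold change of 1.5, 1 down with no filter, and 9 down and 5 up with no fold limit. T-5224 gave 15 down at 1.5, 4 down with a mean of at least 5, 12 down with no filter, and 26 down and 13 up with no fold limit. Of single genes, 392 values kept direction and side of the p limit, 4 lost the p limit (all Timp3 with T-5224), 3 gained it and 1 turned, Timp1 with T-5224 under quantile normalization (0.0043), which did not pass the test. Libraries with the same replicate number in the SB431542 experiment had r = -0.15, 0.15 and -0.09, and the other pairs -0.17 to 0.20. With 3 libraries a group these values cannot settle whether the libraries were paired. With the replicate block the 9 genes gave 0 down and 0 up, 2 lower and 1 higher, and all genes 71 down and 25 up against 63 and 25. The T-5224 columns carry other numbers than the labels, so no block was fitted. Depth limits Mmp9 and the DMSO level of Plaur in the T-5224 experiment.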
